A study of Mus musculus with 44 samples.

Results

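Notch signalling was followed through 10 genes that cover its main steps: the receptors Notch1, Notch2, Notch3 and Notch4, the ligands Jag1, Jag2 and Dll1, the DNA-binding factor Rbpj and the target genes Hes1 and Hey1. They were taken from the count table by symbol, but the list was drawn up with earlier results of these data known. All 10 were found among 46831 genes. SLIM-seq pulls down RNA that carries m6A, a methyl mark on adenosine, by antibody (IP) and compares it with RNA that was not enriched (input), so that input gives the mRNA level and IP over input gives the enrichment. The cells were sorted from the limbs of mice at postnatal day 3 as 8 skeletal populations: SSC (skeletal stem cells), the progenitors pBCSP and BCSP, and the downstream populations PCP, THY, BLSP, 6C3 and HEC. The 32 WT libraries, titled wild type, hold 2 input and 2 IP libraries of each population. The study uses the name WT for its Mettl3 fl/fl control mice without Cre. The 12 libraries labelled Mettl3cko hold the same for SSC, pBCSP and BCSP of Mettl3 fl/fl mice that carry Col2a1-Cre. That both genotypes share the floxed allele of Mettl3 is inferred from this name, since it is not stated for each library. Mettl3 encodes the catalytic subunit of the m6A writer. Cre is driven by a promoter of the cartilage lineage, so cells that never used that promoter keep the gene. For the 12 libraries the genotype rests on their titles, because the genotype field reads wild type for every library.

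In Notch signalling a ligand on one cell binds a receptor on its neighbour, and the receptor is then cut by ADAM proteases and by gamma-secretase. The freed intracellular part enters the nucleus, joins RBPJ and a Mastermind coactivator, and turns on genes such as Hes1 and Hey1, which encode repressors of the basic helix-loop-helix class. In the skeleton the pathway is known to hold progenitors back from osteoblast differentiation and to act in chondrocyte maturation, and NOTCH3 and NOTCH4 are best known from the mural and endothelial cells of vessels.

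The m6A writer prefers short motifs, of which GGACT is a common form, and m6A is often found near the stop codon. GGACT was counted on the sense strand of the longest coding transcript of each gene in GENCODE vM21 (GRCm38), where 87.6% of 21877 coding genes had at least 1 and the median gene had 3, or 1.01 per kb. Notch2 had 14 such motifs in 10500 bases, Jag1 had 6 in 5612 bases, Notch3 had 10 in 8016 bases, Rbpj had 3 in 5485 bases and Hes1 and Hey1 had 2 each. The motif nearest to the stop codon is shown with 8 bases on each side, the motif in capitals, for the 3 members that were enriched in IP in any population and for 3 that were not.
Notch2 (3′ UTR, 385 bases past the start of the stop codon, chr3:98147819-98147839, + strand): gtgccccgGGACTctgtccag
Jag1 (3′ UTR, 938 bases past it, chr2:137082076-137082096, - strand): cattttaaGGACTgactgagg
Notch3 (3′ UTR, 478 bases past it, chr17:32121332-32121352, - strand): gccaatccGGACTctgtgtac
Rbpj (3′ UTR, 20 bases past it, chr5:53653630-53653650, + strand): ttttgctgGGACTgaaactga
Hes1 (coding, 28 bases before it, chr16:30067390-30067410, + strand): ctcacttcGGACTccatgtgg
Hey1 (coding, chr3:8664957-8664977, - strand): tcattgaaGGACTcgatgcct
Per kb, Notch2 (1.33), Notch3 (1.25) and Jag1 (1.07) were not set apart from Hes1 (1.36) or Notch1 (1.26), while Rbpj (0.547) and Hey1 (0.825) held fewer. Every member held the motif, so its presence did not separate enriched from other members, and a motif is not a measured site, since reads were counted per gene.

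The libraries held 16480027 to 44046651 counts, and log2 CPM of replicate libraries correlated across genes at 0.954 to 0.977 for WT input, 0.890 to 0.924 for WT IP, 0.938 to 0.953 for Mettl3cko input and 0.803 to 0.844 for Mettl3cko IP. Mettl3 itself stood at 12.5 to 20.3 CPM (counts scaled to the same library total) in the WT input libraries of SSC, pBCSP and BCSP and at 16.7 to 23.5 CPM in those labelled Mettl3cko (log2 fold change 0.19, 0.69 and -0.15, smallest adjusted p = 0.618). A count over the whole gene does not check a deletion of part of it. Of the 5 surface markers of the sort, Thy1 in WT was at 17.3 to 33.3 CPM in PCP, THY and BLSP and at most 0.423 CPM in the other populations, and Enpep (6C3) was at 40.5 to 54.5 CPM in 6C3 and HEC and at most 8.07 CPM in the others. Cd200 was at 149 to 304 CPM in SSC and BCSP and at 21.6 and 27.1 CPM in pBCSP, Eng (CD105) at 114 and 144 CPM in BCSP and at 34.2 to 65.7 CPM in SSC and pBCSP, and Itgav (CD51) at 31.4 CPM or more in every WT library. Among 7 chondrocyte markers all 7 were higher in SSC, pBCSP and BCSP at an adjusted p under 0.05, and Matn1, a cartilage matrix gene, was at 945 to 1962 CPM there and at 1.20 to 21.9 CPM in the downstream populations. Ptprc, the pan-leukocyte gene, had no count in WT SSC, pBCSP and BCSP and at most 0.817 CPM in the other WT populations. Each condition has 2 libraries, so p-values measure the spread between these libraries only.

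Across the 8 WT populations the members differed widely in level. Per kb of exon, the mean over populations was highest for Hes1 (52.3 CPM per kb ± 21.9 SD over 8 populations), followed by Notch2 (13.9 ± 4.34), Jag1 (7.25 ± 4.93) and Rbpj (4.27 ± 1.28). Hey1 (3.70 CPM per kb), Notch1 (2.19), Notch3 (1.11) and Dll1 (1.10) lay below these, and Notch4 (0.347) and Jag2 (0.0999) were lowest. Notch2 was the most abundant receptor and Jag1 the most abundant ligand in this average. In edgeR's quasi-likelihood F test among the 8 populations, 8 of 10 members differed at an adjusted p under 0.05, where 40.1% of 20060 genes did. The members that did not were Notch2 (adjusted p = 0.152) and Jag2 (adjusted p = 0.486).

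**Figure D1:**
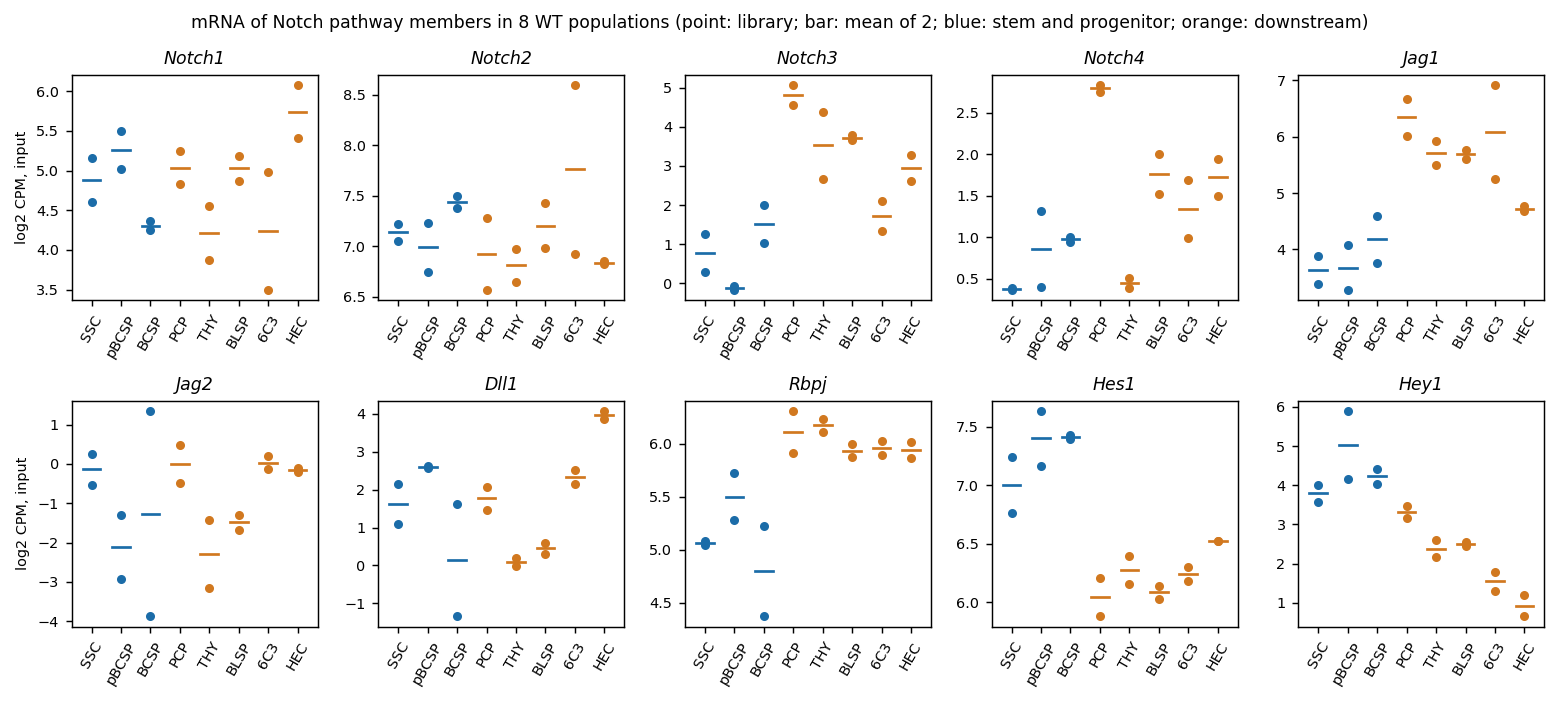
log2 CPM of each member in the input libraries of the 8 WT populations, 1 point per library and a bar at the mean of 2, with SSC, pBCSP and BCSP in blue and the downstream populations in orange. Notch3, Jag1 and Rbpj sit higher in the orange populations, Hes1 and Hey1 higher in the blue ones, and the 6C3 libraries lie far apart for Notch2 and Jag1.

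Notch3 varied most among the receptors, by 33.8-fold between its lowest and highest population. In PCP it stood at 23.7 and 33.8 CPM, in THY at 6.31 and 20.8 CPM and in BLSP at 12.6 and 13.7 CPM. HEC (6.04 and 9.69 CPM) and 6C3 (2.47 and 4.20 CPM) came next, and SSC (1.15 and 2.33 CPM), pBCSP (0.814 and 0.884 CPM) and BCSP (1.97 and 3.94 CPM) were lowest. The stem and progenitor libraries thus overlapped with the downstream ones only at the level of 6C3. The mean of SSC, pBCSP and BCSP lay below that of the 5 downstream populations by 2.78 ± 0.30 (SE) on the log2 scale, or 6.85-fold (adjusted p = 1.41e-06). Here and below, fewer cells of a type in a sort and less RNA per cell cannot be told apart.

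Notch4 was low throughout and highest in PCP, at 6.70 and 7.09 CPM. The other populations ranged from 1.22 CPM in SSC to 3.94 CPM in BLSP, and no other library reached the level of PCP. It was lower in the stem and progenitor populations by 0.97 ± 0.25 (adjusted p = 0.0043), but without PCP this fell short of the threshold, with a log2 fold change of -0.68 and an adjusted p of 0.0621. Notch1, the best-studied receptor of the family, was at 42.3 and 67.6 CPM in HEC and at 11.2 to 45.2 CPM in all other WT input libraries, which overlapped with the lower library of HEC. It differed among the populations (adjusted p = 0.0426) but not between the stem and progenitor and the downstream ones (log2 fold change -0.16 ± 0.21, adjusted p = 0.543). Notch2 was even in comparison, at 94.5 to 181 CPM in 15 of the 16 libraries, and the exception was 1 library of 6C3 at 388 CPM beside 122 CPM in the other. Its log2 fold change of stem and progenitor over downstream populations was -0.05 ± 0.19 (adjusted p = 0.875), and 0.16 without that library.

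Among the ligands, Jag1, like Notch3, had its highest mean in PCP and low levels in the stem and progenitor populations. It stood at 64.2 and 102 CPM in PCP, 44.9 and 60.8 CPM in THY, 48.6 and 54.4 CPM in BLSP and 25.7 and 27.1 CPM in HEC, and the 2 libraries of 6C3 lay apart at 121 and 38.1 CPM. SSC held 10.4 and 14.6 CPM, pBCSP 9.63 and 16.8 CPM and BCSP 13.4 and 24.2 CPM, so no stem or progenitor library reached any downstream one. The difference was -1.98 ± 0.24 on the log2 scale, or 3.95-fold (adjusted p = 4.41e-06), and -1.77 without the high library of 6C3.

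Dll1, a ligand of the Delta type, was highest in HEC at 14.5 and 16.8 CPM. It reached 5.87 and 6.12 CPM in pBCSP, 4.39 and 5.69 CPM in 6C3, 2.70 and 4.11 CPM in PCP and 2.05 and 4.38 CPM in SSC. THY and BLSP were lower, between 0.921 and 1.43 CPM, and the libraries of BCSP held 10 and 91 counts. Without the latter library Dll1 was called lower in stem and progenitor populations, at -0.89 (adjusted p = 0.0101). It differed among the populations (adjusted p = 0.00112), but stem and progenitor populations did not differ from downstream ones (log2 fold change -0.11 ± 0.33, adjusted p = 0.833). Jag2 was near the limit of detection, with 0 to 76 counts per library. The 76 counts and the only 0 were both in BCSP, and without the BCSP library of 76 counts its stem and progenitor difference turned from 0.13 ± 0.71 (adjusted p = 0.927) to -2.67 (adjusted p = 0.0238).

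Rbpj, through which all 4 receptors act on DNA, was lower in the stem and progenitor populations. It stood at 33.1 and 33.9 CPM in SSC, 38.8 and 52.9 CPM in pBCSP and 20.7 and 37.4 CPM in BCSP. All downstream libraries lay between 58.4 and 79.3 CPM, with no overlap. The difference was -0.96 ± 0.13 on the log2 scale, or 1.95-fold (adjusted p = 2.03e-05).

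The targets went the other way. Hes1 stood at 108 and 152 CPM in SSC, 144 and 199 CPM in pBCSP and 168 and 172 CPM in BCSP. The downstream libraries ranged from 58.8 CPM in PCP to 92.2 CPM in HEC and did not overlap with these. It was higher in stem and progenitor populations by 0.97 ± 0.11 on the log2 scale, or 1.95-fold (adjusted p = 2.18e-06).

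Hey1 showed a wider span of 20.6-fold. It reached 17.6 and 59.3 CPM in pBCSP, 16.4 and 21.3 CPM in BCSP and 11.9 and 15.9 CPM in SSC. PCP followed with 8.86 and 10.95 CPM, THY with 4.41 and 5.96 CPM and BLSP with 5.43 and 5.80 CPM, and 6C3 (2.40 and 3.40 CPM) and HEC (1.502 and 2.23 CPM) were lowest. Every stem and progenitor library exceeded every downstream one. The difference was 2.23 ± 0.22 on the log2 scale, or 4.68-fold (adjusted p = 4.13e-07).

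Between the stem and progenitor and the downstream populations, 4 members were thus lower (Notch3, Notch4, Jag1 and Rbpj) and 2 were higher (Hes1 and Hey1), where 28.3% of all genes tested were lower and 23.1% higher. The median log2 fold change was -0.14 over the members and -0.11 over all genes. With each population taken as 1 value, an exact permutation test over the 56 ways to choose 3 of 8 gave p = 0.0179, the smallest it can give, for Jag1, Rbpj, Hes1 and Hey1, 0.0357 for Notch3 and 0.143 for Notch4 (two-sided, unadjusted). The share of all genes that reach the smallest value is not given here, so it does not set these members apart from other genes.

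**Figure D2:**
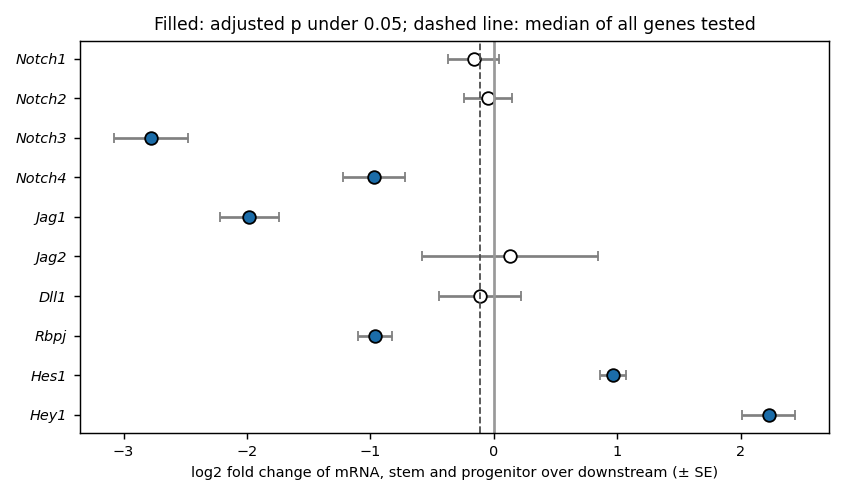
log2 fold change of mRNA in SSC, pBCSP and BCSP over PCP, THY, BLSP, 6C3 and HEC with its SE, from edgeR, filled where the adjusted p is under 0.05 and with a dashed line at the median of all genes tested. Notch3 (-2.78) and Jag1 (-1.98) lie farthest to the left and Hey1 (2.23) farthest to the right.

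Pairs of populations were also compared for each member. Of 280 combinations of a member and a pair of populations, 85 differed at an adjusted p under 0.05, beside 15.1% of such combinations over all genes. Notch3 and Hey1 differed in 16 of 28 pairs each, Hes1 in 14, Jag1 in 13, Rbpj in 11, Dll1 in 7, Notch4 in 6 and Notch1 in 2, while Notch2 and Jag2 differed in none. No 2 populations that neighboured each other in the order of a member's level differed, the smallest adjusted p being 0.124 for Dll1. Neighbours are the closest pairs by construction and have 2 libraries each, so this cannot tell a gradual order from steps.

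Over the 16 WT input libraries the pattern of Notch3 was most like those of Scarf2 (Pearson r of log2 CPM 0.953), Rap2a (0.937) and Sele (0.930) among 20060 genes. For Dll1, the ligand of widest range, these were 2810029C07Rik (0.886), Casr (0.873) and Sardh (0.864), and for Hey1 Serpina3c (0.932), Ddx41 (0.930) and Serpina3n (0.930). These are descriptions, since the 16 libraries share 8 populations.

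Markers of other cell types moved with some members. All 4 stroma markers and 5 of 9 tested blood markers were lower in stem and progenitor populations, and 1 blood marker, Cd79a, was higher (log2 fold change 3.05 ± 0.33). The stroma sum was 69.3 to 139 CPM in stem and progenitor libraries, 1137 and 2390 CPM in PCP and 190 to 621 CPM in the other downstream libraries. The sum of 6 osteoblast markers was 5526 to 11598 CPM in stem and progenitor libraries and 62366 to 141548 CPM downstream, but this sum is mostly Col1a1 (log2 fold change -3.66 ± 0.12), and the other 5 markers were called higher in the former. The sum of 7 mural markers was 479 to 701 CPM in the stem and progenitor libraries and 763 to 2884 CPM in the downstream ones. In stem and progenitor populations 6 of the 7 were lower at an adjusted p under 0.05 in edgeR. The other, Cspg4, was called higher there (0.48 ± 0.13), so the sum mixes markers of both directions. Rgs5, a marker of pericytes, stood at 1261 and 2121 CPM in PCP, 880 and 1153 CPM in THY and 533 and 735 CPM in BLSP, the populations in which Notch3 was also highest, at 106 to 245 CPM in 6C3 and HEC, and at 1.27 to 57.3 CPM in SSC, pBCSP and BCSP. The sum of 10 endothelial markers was 218 and 243 CPM in PCP, where Notch4 was also highest, and 13.3 to 85.8 CPM in the other WT libraries, and 9 of the 10 markers had their highest level in PCP. Among them, Cdh5 had no count in SSC and 8.35 and 10.9 CPM in PCP. Tek (Tie2), against which the cells were gated, had none in SSC or 6C3 and 6.02 and 8.17 CPM in PCP. Between stem and progenitor and downstream populations the 10 were divided at an adjusted p under 0.05 in edgeR. In the former 2 were higher, Cldn5 (1.22 ± 0.38) and Egfl7 (1.01 ± 0.27), and 2 lower, Esam (-2.36 ± 0.25) and Flt1 (-2.33 ± 0.14). Cdh5 was not called (adjusted p = 0.14). Without PCP, Notch3 (log2 fold change -2.42), Jag1 (-1.83) and Rbpj (-0.94) were still lower in stem and progenitor populations, and Hes1 (0.92) and Hey1 (2.52) still higher. The part of these cell types in the levels of Notch3, Jag1 and Notch4 was not tested.

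**Figure D3:**
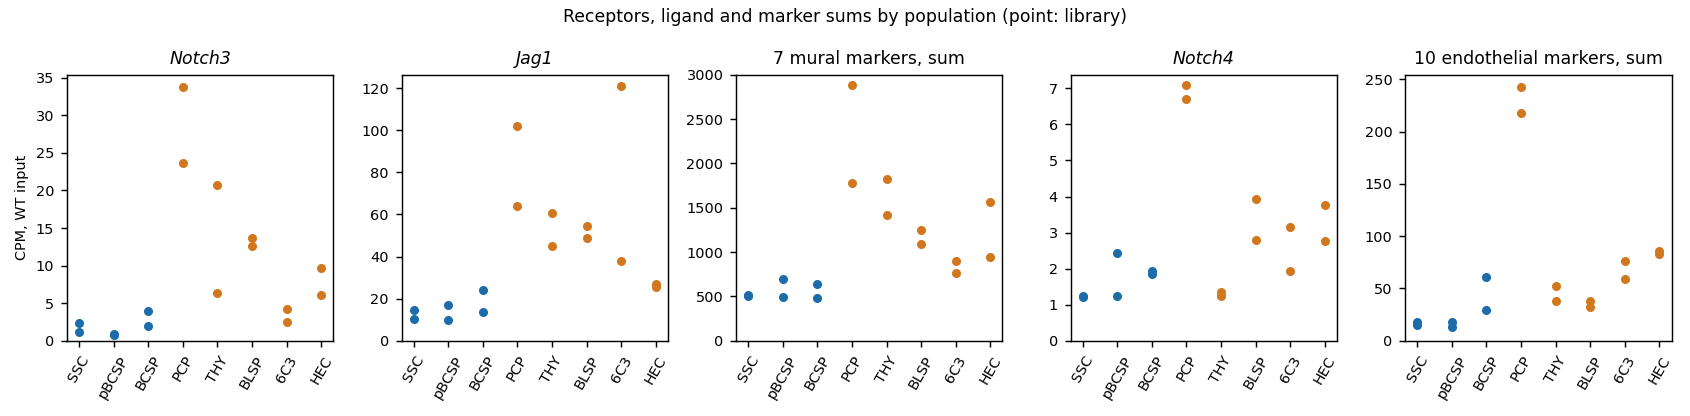
CPM of Notch3, Jag1 and Notch4 and the summed CPM of 7 mural and 10 endothelial markers in the 16 WT input libraries, 1 point per library. The means of Notch3, Jag1 and the mural sum are highest in PCP, and for Notch4 and the endothelial sum both PCP libraries lie above every other library.

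Of 52 further genes of the pathway, listed by role, 50 were tested between the stem and progenitor and the downstream populations, and 12 were higher and 16 lower in the former, beside 23.1% and 28.3% of all genes. Other targets and further genes of the Hes and Hey family, listed as 1 role, did not share the direction of Hes1 and Hey1. Of 8 listed, 6 were tested, 3 were lower and none was higher at an adjusted p under 0.05 in edgeR. Nrarp, a feedback inhibitor of the pathway, was at 0 to 0.170 CPM in stem and progenitor libraries and at 1.01 to 3.85 CPM downstream (log2 fold change -5.18 ± 0.56, adjusted p = 1.39e-06), and Hey2, a relative of Hey1, had a log2 fold change of -4.48 ± 0.64 (adjusted p = 3.16e-05). Both were under 4 CPM in every library.

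Of 10 genes for cleavage of the receptor, 4 were higher and 3 lower. The ADAM proteases that make the first cut after ligand binding were among the lower ones, with Adam10 at 13.2 to 38.6 CPM in stem and progenitor libraries and 50.5 to 117 CPM downstream (log2 fold change -1.99 ± 0.15, adjusted p = 3.75e-08) and Adam17 at a log2 fold change of -1.09 ± 0.11 (adjusted p = 5.97e-07). Of 14 genes for trafficking and ubiquitin ligases, 2 were higher and 7 lower, and the lower ones included Numbl (-1.89 ± 0.19), a relative of the inhibitor Numb, and Dtx3l (-1.78 ± 0.17), a Deltex family ligase. Of 10 nuclear cofactors, 3 were higher and 2 lower, with the coactivator Maml2 higher by 1.66 ± 0.17 and the corepressor Ncor1 at -0.91 ± 0.12. Of 4 other ligands, 2 were higher, namely the non-canonical Dlk2 (2.86 ± 0.66) and Dlk1 (0.64 ± 0.21). Of 6 genes that glycosylate the receptor, Poglut1 was higher (0.42 ± 0.11) and Mfng lower (-3.53 ± 1.00), the latter with no count in SSC and pBCSP and 3.18 and 4.38 CPM in PCP. In BCSP, however, Mfng stood at 0.724 and 1.40 CPM, above THY, BLSP, 6C3 and HEC, whose libraries held at most 0.327 CPM.

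In IP over input of the WT libraries, Notch2 and Jag1 were the members with the broadest enrichment. With the study's thresholds for an m6A-tagged gene, a log2 fold change above 1 and an unadjusted p under 0.05, 16 of 77 tested combinations of a member and a population were tagged, beside 11.6% of such combinations over all genes. With an adjusted p in place of the unadjusted one there were 15, beside 6.94%. The tagged ones were Notch2 in 7 populations, Jag1 in 6 and Notch3 in 3, and no other member was tagged in any population.

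Notch2 rose from 133 and 149 CPM in input to 714 and 592 CPM in IP of SSC, a log2 fold change of 2.31 ± 0.22 (adjusted p = 0.0286). In the other populations its log2 fold change was 1.81 in pBCSP, 1.53 in BCSP, 1.63 in PCP, 1.92 in THY, 1.48 in BLSP and 1.84 in HEC. Only in 6C3 was it not tagged, at 0.54 ± 0.48, where IP held 364 and 381 CPM against the 388 and 122 CPM of input. Without the higher of these input libraries it was 1.57 (adjusted p = 1.39e-07).

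Jag1 rose from 14.6 and 10.4 CPM in input to 64.8 and 56.5 CPM in IP of SSC, a log2 fold change of 2.37 ± 0.30 (adjusted p = 0.0286). It was tagged in pBCSP (2.09), BCSP (1.76), THY (1.59), BLSP (1.59) and HEC (2.09), with the adjusted p in BCSP at 0.0755. In PCP it lay just under the threshold, at 0.93 ± 0.29, and was 1.25 without input replicate 2. In 6C3 it was 0.32 ± 0.48, and 1.34 without input replicate 1 of 6C3 (adjusted p = 1.09e-04).

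Notch3 was tagged in BLSP (1.05 ± 0.21, adjusted p = 0.0141), 6C3 (2.04 ± 0.47, adjusted p = 0.0171) and HEC (1.46 ± 0.39, adjusted p = 0.0229), with the value in BLSP just above the threshold: it was 0.87 or 0.97 without one or the other library numbered replicate 2. The value in HEC was 0.80 without IP replicate 1. In THY it was 1.23 ± 0.53 (adjusted p = 0.132), short of the unadjusted threshold in edgeR but not in DESeq2, and in PCP, where its mRNA was highest, 0.73 ± 0.30. In SSC, pBCSP and BCSP its IP held at most 3.09 CPM, and the ratios of replicate libraries had opposite signs.

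Rbpj, Hes1, Notch1 and Hey1 were not tagged although each was above the filter on low counts in all 8 populations. The log2 fold change of Rbpj ran from -0.01 in SSC to 0.43 in HEC and that of Hes1 from -0.12 in pBCSP to 0.62 in 6C3. Notch1 ran from -0.39 in SSC to 0.90 in 6C3, with 4 populations above 0 and 4 below, and passed in 6C3 (1.76) without input replicate 2. Hey1 was below 0 in all 8, from -1.56 to -0.49, and so was Dll1 in the 7 in which it was tested, from -2.36 to -0.55. Notch4 and Jag2 had IP counts too low for a steady ratio, and Notch4 was below 0 in 6 of 8 populations, with the lowest values in PCP (-2.37 ± 0.62, adjusted p = 0.0563) and BLSP (-2.13 ± 0.61, adjusted p = 0.0451). The median log2 fold change of all genes lay between -0.05 and 0.03.

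**Figure D4:**
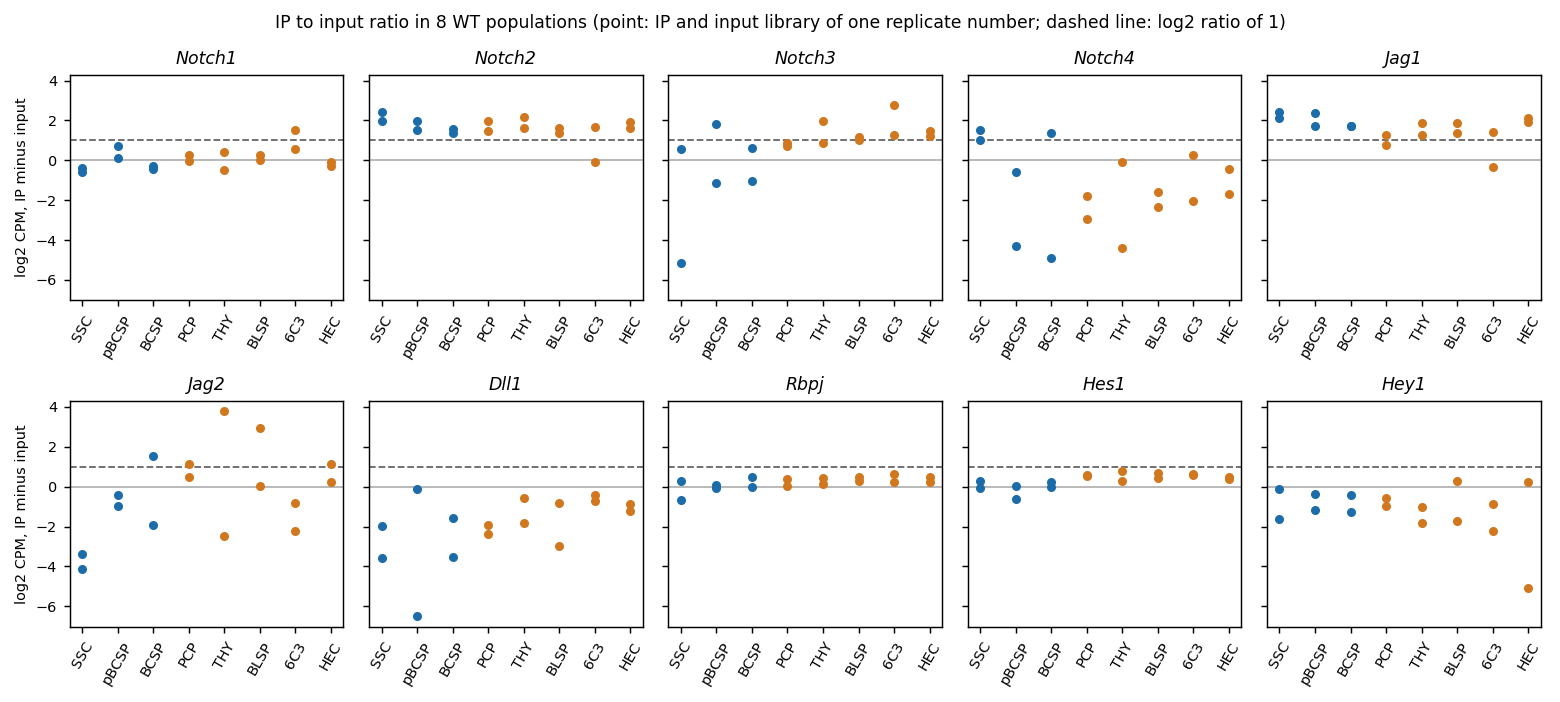
Difference in log2 CPM between the IP and the input library that share a replicate number, for each member in the 8 WT populations, with a solid line at 0 and a dashed line at a log2 ratio of 1. Notch2 and Jag1 lie at or above the dashed line apart from 1 pair of 6C3 libraries and, for Jag1, 1 of PCP, and Rbpj and Hes1 lie near 0.

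Whether the ratio itself differed between populations was tested in 1 fit over the 32 WT libraries. No member differed among the 8 populations at an adjusted p under 0.05 in edgeR, where 0.485% of 25365 genes did, and none between stem and progenitor and downstream populations, where 4.84% did. At an unadjusted p under 0.05 there were 2 (Jag1 and Notch2, beside 7.97% of all genes) and 3 (these and Jag2, beside 15.7%), and DESeq2 called Jag2 alone in the latter. The log2 ratio of Jag1 was higher in stem and progenitor populations by 0.89 ± 0.28 (adjusted p = 0.0659) and that of Notch2 by 0.52 ± 0.24 (adjusted p = 0.284), and without the high input library of 6C3 these were 0.67 (adjusted p = 0.11) and 0.30 (adjusted p = 0.522). Jag1 passed an adjusted p under 0.05 when any of 6 other single libraries was left out, at 0.95 to 1.05, and Notch2 without input replicate 2 of 6C3 (0.64), Notch3 without IP replicate 1 of SSC (-3.79) and Dll1 without IP replicate 1 of pBCSP (-4.01). The ratio of Notch3 differed by -1.23 ± 0.60 (adjusted p = 0.319). Scaling by DESeq2 size factors shifted the median difference of all genes by -0.16 and the split of calls from 777 higher and 450 lower to 427 and 628, and no member was called under it.

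Among the 52 further genes of the pathway, 56 of 360 combinations of gene and population were tagged, or 15.6%, beside the 11.6% of all genes. Psenen, a subunit of gamma-secretase, was tagged in all 8 populations, Mib1, the ligase that lets ligands be taken up in the sending cell, and the acetyltransferase Kat2b in 7 each, and Crebbp, Fbxw7 and Dtx3l in 5 each. The nuclear cofactors gave 22 of 80 combinations (27.5%) and the other targets and Hes and Hey family genes 1 of 32 (3.12%).

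The libraries labelled Mettl3cko were compared with WT in SSC, pBCSP and BCSP to ask how loss of the m6A writer bears on the mRNA of these genes. With the study's thresholds for a changed gene, a log2 fold change beyond 0.5 and an unadjusted p under 0.05, 1 member was changed in SSC (14.0% of all genes), 1 in pBCSP (8.36%) and 2 in BCSP (12.9%). With 10 members, a count of 1 or 2 is near these shares of all genes. Of 30 combinations of a member and a population, 12 had no overlap in CPM between the genotypes. The share over all genes is not given here, and 2 libraries against 2 often separate without a difference. At an adjusted p under 0.05 no member and 0% of all genes were called in edgeR in any of the 3. Some marker sums of cell types differed between the genotypes. In SSC the endothelial sum was 15.4 and 17.6 CPM in WT and 47.3 and 55.7 CPM in Mettl3cko. The sum of 10 blood markers in SSC was 7.93 and 11.7 CPM in WT and 33.6 and 42.2 CPM in Mettl3cko. In BCSP the blood sum was 7.63 and 10.7 CPM in WT and 19.9 and 20.1 CPM in Mettl3cko. The stroma sum in SSC was 78.5 and 104 CPM in WT and 52.7 and 53.8 CPM in Mettl3cko. In pBCSP the chondrocyte sum was 92986 and 96471 CPM in WT and 56843 and 65202 CPM in Mettl3cko. In BCSP the osteoblast sum was 9229 and 10767 CPM in WT and 13253 and 18938 CPM in Mettl3cko. Each of these 3 sums overlapped in the other populations. The mural sum was higher in Mettl3cko without overlap in SSC (588 and 622 against 510 and 518 CPM), pBCSP (708 and 781 against 497 and 701) and BCSP (752 and 759 against 479 and 642). This sum includes Cspg4, which went against the other mural markers between the WT populations. The part of such cells in the changes in SSC, pBCSP and BCSP was not tested.

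In SSC, Notch2 stood at 197 and 236 CPM in Mettl3cko and at 133 and 149 CPM in WT, without overlap, a log2 fold change of 0.62 ± 0.19 (adjusted p = 0.219), which missed the threshold without the first library of either genotype. In pBCSP the groups did not overlap either, at 157 and 249 CPM in Mettl3cko and 107 and 150 CPM in WT, but the log2 fold change of 0.67 ± 0.32 missed the threshold (adjusted p = 0.633). In BCSP it was -0.08 ± 0.21, with overlap. In SSC, Jag1 went from 10.4 and 14.6 CPM to 17.8 and 22.8 CPM, at 0.70 ± 0.30 (adjusted p = 0.342), and met the threshold under DESeq2 (0.73) but not in edgeR.

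In pBCSP, Notch4 had 37 and 77 counts in WT and 2 and 4 counts in Mettl3cko, a log2 fold change of -4.23 ± 1.27 (adjusted p = 0.569). It fell short of the threshold when either WT library was left out (-4.65 and -3.66). The endothelial marker sum was 13.3 and 18.2 CPM in WT pBCSP and 20.4 and 22.4 CPM in Mettl3cko pBCSP, with Cdh5 at 0 to 0.542 CPM in the former and at 0 in both libraries of the latter. In SSC Notch4 had 35 and 35 counts in WT and 14 and 60 in Mettl3cko, and in BCSP 57 and 59 against 25 and 26.

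In BCSP, Hes1 stood at 168 and 172 CPM in WT and at 81.2 and 97.7 CPM in Mettl3cko, without overlap, a log2 fold change of -0.93 ± 0.22 (adjusted p = 0.224). In pBCSP it was -0.64 ± 0.37, with 144 and 199 CPM in WT and 74.9 and 143 CPM in Mettl3cko, just short of overlap, and in SSC -0.24 ± 0.26, where the groups overlapped. Notch1 in BCSP stood at 18.9 and 20.5 CPM in WT and at 26.8 and 47.0 CPM in Mettl3cko (0.90 ± 0.32, adjusted p = 0.308). It missed the threshold without either WT library (0.84 and 0.96) and without the higher Mettl3cko library (0.46). Hey1 did not pass in any population, at 0.47 ± 0.32, -0.17 ± 0.54 and -0.41 ± 0.37 in SSC, pBCSP and BCSP. Without input replicate 2 of Mettl3cko pBCSP, 6 of 9 tested members met the thresholds in pBCSP, beside 25.7% of all genes in that fit, among them Hes1 (-1.19) and Rbpj (-1.05). Dll1 in pBCSP had 173 and 194 counts in WT and 4 and 61 in Mettl3cko, without overlap (-2.52 ± 1.18, adjusted p = 0.633), and met the thresholds in DESeq2 (-2.53) and in that left-out fit (-5.58, adjusted p = 0.0304). It was -0.41 ± 0.64 in SSC and -0.22 ± 1.85 in BCSP. Jag2 and Notch3 had few counts and overlapped between the genotypes in all 3 populations. Rbpj was below 0 in all 3, at -0.56 ± 0.28, -0.70 ± 0.32 and -0.35 ± 0.36, without reaching the threshold. The genotypes also did not overlap for Rbpj in SSC and pBCSP and for Notch1 in SSC.

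**Figure D5:**
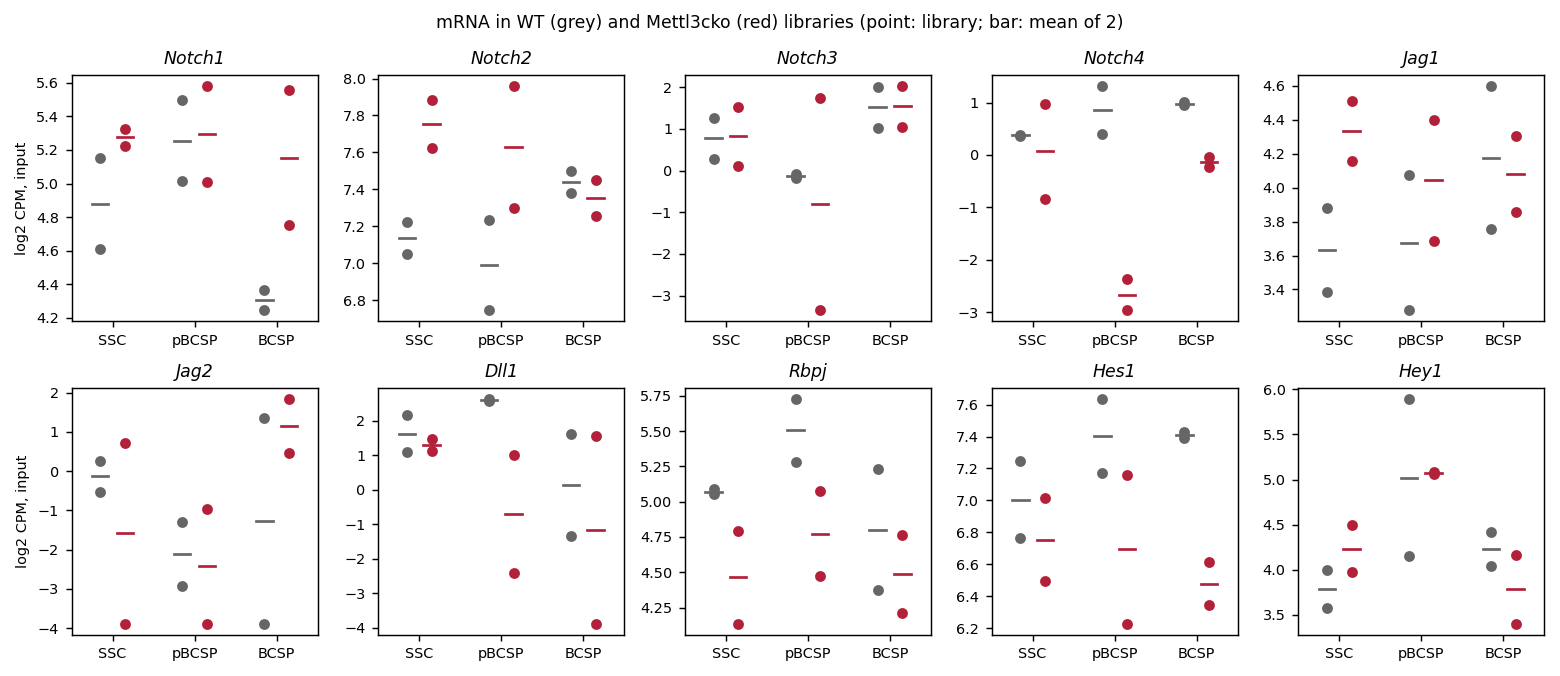
log2 CPM of each member in the input libraries of SSC, pBCSP and BCSP, WT in grey and Mettl3cko in red, 1 point per library and a bar at the mean of 2. Hes1 is lower in red in BCSP, Notch2 higher in red in SSC and Notch4 far lower in red in pBCSP.

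The change did not differ between the 3 populations for any member in a fit over the 12 libraries, nor for any gene (0% of 18655, adjusted p, edgeR), and at an unadjusted p under 0.05 it did for Notch4 alone. In the mean over the 3 populations, a contrast chosen after the data were seen, no member passed an adjusted p under 0.05 in edgeR, where 6.48% of genes did. At an unadjusted p under 0.05, which 22.4% of all genes passed, there were 5 members: Hes1 (-0.59 ± 0.18, adjusted p = 0.0784), Notch4 (-1.80 ± 0.58, adjusted p = 0.0909), Rbpj (-0.53 ± 0.21, adjusted p = 0.152), Notch2 (0.41 ± 0.14, adjusted p = 0.113) and Notch1 (0.45 ± 0.18, adjusted p = 0.169). DESeq2 gave an adjusted p under 0.05 for 3 of them, Hes1 (0.0217), Notch2 (0.0384) and Notch4 (0.0179). The share of all genes under that test is not given here, so this count cannot be set against it.

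Of the further pathway genes, 4 of 41 tested met the same thresholds in SSC, all lower, 3 of 43 in pBCSP and 8 of 45 in BCSP, beside 14.0%, 8.36% and 12.9% of all genes. Psenen, which was tagged in all WT populations, was lower in SSC (-0.87 ± 0.20) and BCSP (-0.84 ± 0.22), and Psen2, a catalytic subunit of gamma-secretase, and the glycosyltransferase Eogt were lower in SSC (-1.08 ± 0.31 and -1.13 ± 0.43). In pBCSP Poglut1 was higher (0.64 ± 0.26) and Dtx1 and Neurl1b were lower from few counts. In BCSP the Deltex family genes Dtx2 (0.71 ± 0.29) and Dtx4 (3.45 ± 1.05) were higher, and Pofut1, which fucosylates the receptors, was lower (-1.21 ± 0.43). The smallest adjusted p among these was 0.176.

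The enrichment of Notch2 and Jag1 in IP was still seen in the libraries labelled Mettl3cko. Paired by replicate number, the log2 ratio of Notch2 had values of 2.45 and 1.38 (SSC), 0.57 and 2.67 (pBCSP), and 2.03 and 2.33 (BCSP). Jag1 had 2.40 and 1.72, 0.81 and 2.58, and 2.502 and 2.12 in this order. The change of the ratio against WT was -0.12 ± 0.58, -0.05 ± 0.64 and 0.69 ± 0.32 for Notch2 and -0.10 ± 0.67, -0.33 ± 0.70 and 0.57 ± 0.59 for Jag1, none at a p under 0.05, with errors too wide to show that the ratios were alike. The median change of all genes was -0.16, -0.26 and -0.10. Libraries were scaled to each other, so a loss of m6A shared by most genes would not show in these ratios. The study reported less m6A by dot blot in stem and progenitor cells after Mettl3 deletion. Over the 3 populations 2 of 29 tested combinations passed an unadjusted p under 0.05, beside 12.2% over all genes, and none an adjusted p, as for every gene. One was Notch1 in pBCSP, with IP at 49.3 and 53.8 CPM in WT and 19.6 and 10.3 CPM in Mettl3cko (-1.90 ± 0.63, adjusted p = 0.298), which missed the threshold when any of 3 libraries was left out. The other was Notch4 in SSC, with no count in either Mettl3cko IP library, which allows up to 0.149 and 0.115 CPM for counting error alone, against 2.54 and 3.62 CPM in WT. Some IP libraries labelled Mettl3cko stood far apart for a member: Notch1 had 0.249 and 13.7 CPM in SSC and Hey1 0.0663 and 13.9 CPM in pBCSP and 1.10 and 34.9 CPM in SSC.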

How the data were processed

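Counts were analysed for 44 libraries. The authors trimmed reads with fastp 0.20.1, aligned them to GRCm38 with HISAT2 2.2.1 and counted them per gene with featureCounts 2.0.1; strand setting and annotation are not given in the sources used here. What the authors deposited are raw counts, and 2 further deposited tables hold only the authors' own comparisons and were not used. Of 46959 entries, 128 with the date names 1-Mar and 2-Mar were left out (at most 0.390% of counts). Genomic positions and exon lengths are from GENCODE vM21. A count without strand cannot separate Notch1, Notch2, Notch3, Notch4, Jag2, Dll1 and Rbpj from genes annotated across them.

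Tests used edgeR 4.0.16 (quasi-likelihood F test, TMM, filterByExpr) in R 4.3.3, with Benjamini-Hochberg adjustment over all genes of a fit, and SE as the absolute log2 fold change over the square root of F. DESeq2 1.42.0 was an alternative. CPM used TMM over all libraries, and log2 CPM a prior count of 2. All tests were two-sided. Leave-one-out fits over the 32 WT libraries kept the genes and dispersion trend of the full fit. The tests were checked on simulated data. Figures used Python 3.11.15 and matplotlib 3.10.9. All 10 members were described. Pathway genes were counted by role, and the 2 of smallest p per role among those called were named, apart from some that are not reported here. The tagged pathway genes were named by the number of populations in which they were tagged, chosen after the values were seen. The members and lists were chosen with earlier results of these data known. Replicate libraries differed by more than sampling noise in every condition.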

Additional observations from a re-analysis of the deposited data

How the results depend on the processing

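When single libraries were left out, 7 to 9 members differed in mRNA among WT populations, 2 were higher and 4 to 5 lower in stem and progenitor populations, and 15 to 18 combinations were tagged. Without PCP, an alternative added after the data were seen, these mRNA counts were 7, 2 and 3. For the ratio among populations the count of members went from 0 to 2 without a filter on low counts, to 2 with the replicate block and to 0 to 2 with single libraries left out. For the ratio between stem and progenitor and downstream populations it was 3 without the filter, 1 by DESeq2's test, 2 with the replicate block (Jag1, adjusted p = 0.00105, and Notch3, adjusted p = 0.0146) and 0 to 2 with libraries left out. In Mettl3cko SSC it was 2 with DESeq2 size factors, without the filter, by DESeq2 and with the replicate block, 0 at an adjusted p and 0 to 4 with libraries left out. In pBCSP it was 5 without the filter, 3 by DESeq2, 4 with the replicate block, 0 at an adjusted p and 0 to 6 with libraries left out. In BCSP it was 0 at an adjusted p and 1 to 2 with libraries left out, and for the ratio in Mettl3cko 0 and 1 to 4. For the mean over 3 populations it was 2 without the filter, 3 by DESeq2, 2 with the replicate block and 0 to 2 with libraries left out. The cause of these changes was not tested. For most of these alternatives the share of all genes called is not given here, so the counts cannot be set against it. Of 156 values for single members, 59 took the other sign under at least 1 alternative. Signs turned in a fit that passed the threshold for Jag2 in stem and progenitor populations without BCSP input replicate 1 (-2.67, and up to 0.50 without other libraries), for Notch3 in Mettl3cko pBCSP without input replicate 2 (-4.63, against 1.97 without replicate 1) and for the ratio of Hey1 in Mettl3cko SSC without IP replicate 2 (-3.29, against 1.68 without replicate 1). Sorted cells of one batch were split between IP and RNA-seq, but the sources used here do not say that a shared number marks a shared batch. Deviations of same-numbered libraries correlated at -0.187 to 0.116 between WT input populations and at 0.0195 to 0.239 between WT input and IP (over 0.1 in 4 of 8 populations). Between WT and Mettl3cko input they correlated at -0.0032 to 0.00546. The main tests therefore did not pair libraries by number, and ratios given by replicate number are descriptions. With 2 libraries per condition and few counts, values for Notch4, Jag2 and Dll1 are limited by depth.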
